A study of Mus musculus with 6 samples.

Results

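Small heat shock proteins are a family of chaperones that hold unfolding proteins in a soluble state without using ATP. They share an alpha-crystallin domain, assemble into oligomers, and in striated muscle bind the desmin, actin and titin filaments and the Z disc, where several of them increase as myoblasts become myotubes. The 7 muscle members, *Cryab*, *Hspb1*, *Hspb2*, *Hspb3*, *Hspb6*, *Hspb7* and *Hspb8*, were taken by gene name from the 55416 genes of the deposited expression table, and each name occurred once. They were chosen as a gene family and not by their values. All 7 reached a mean of 1 TPM over the libraries, the minimum for testing, as did 12956 genes in all.

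RNA was sequenced from satellite cells (SCs), the stem cells of skeletal muscle, of wild-type (WT) mice and of lactoferrin knockout (*Ltf*-KO) mice, with 3 libraries of each. The knockout is systemic and was made in C57/BL6N zygotes with CRISPR-Cas9, which removed a run of exons of *Ltf*, so every cell of the animal carries it. The cells of both groups were sorted from digested leg muscle of adult mice as negative for Sca1 and CD11b and positive for CD34 and α7-integrin, while the antibodies listed for the stain were against CD31, CD45, Sca1 and α7-integrin. They were then grown for 4 days on Matrigel in medium with serum, chick embryo extract and basic FGF, and were given no further treatment. The labels do not say whether the 3 libraries of a group came from separate animals, so p-values measure the spread between these libraries, which may be technical.

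Values are TPM, a unit in which reads are divided by gene length and every library is scaled to one total (993650 to 994356 over the genes of the table). Read depth cannot be recovered from them. Myogenic markers were present in every library, with *Pax7* at 36.6 to 43.3 TPM and *Myod1* at 747.6 to 815.7 TPM. The summed level of 8 macrophage markers was 12.2 to 18.2 TPM in WT and 9.93 to 12.9 TPM in *Ltf*-KO, that of 8 endothelial markers 6.19 to 15.8 and 6.22 to 14.4 TPM, and that of 6 Schwann cell markers 15.4 to 29.1 and 17.8 to 25.9 TPM. *Cd14*, *Cd68* and *Lyz2* made up most of the macrophage sums, with *Lyz2* at 7.22 TPM in WT replicate 1. The rest of the macrophage list averaged no more than 0.13 TPM each. The targeted gene *Ltf* was listed at no more than 0.12 TPM in any library and could not be used to check the genotypes.

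The 7 genes lie on 5 chromosomes of GRCm38 and are compact, with 1 to 3 exons in their main transcripts and 154 to 209 codons. *Hspb1* (ENSMUSG00000004951) lies on chromosome 5 from 135887919 to 135889563 and *Hspb8* (ENSMUSG00000041548) on the same chromosome from 116408491 to 116422864. *Hspb3* (ENSMUSG00000051456), a single exon, lies on chromosome 13 from 113662896 to 113663676, *Hspb6* (ENSMUSG00000036854) on chromosome 7 from 30552178 to 30555443, and *Hspb7* (ENSMUSG00000006221) on chromosome 4 from 141420779 to 141425311. *Hspb2* (ENSMUSG00000038086) and *Cryab* (ENSMUSG00000032060) are neighbours on chromosome 9, from 50751078 to 50752354 on the minus strand and from 50751325 to 50756636 on the plus strand. Their main transcripts start back to back with 613 bases between the starts. Of the 6 *Cryab* transcripts in the annotation 2 start inside *Hspb2* on the opposite strand, so the gene spans overlap by 1030 bp, and it is not given whether the counting used strand. If the counting did not use strand, reads in the overlap could not be told apart. *Ltf* is on the same chromosome, 60.3 Mb beyond *Cryab*.

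Promoter sequence is shown for the members whose levels moved most between libraries, *Hspb8*, *Hspb3* and *Hspb1*, and for the other member with a heat shock element close to its start, *Hspb6*. The sequences are from RefSeq on GRCm38.p6 and end just before the start of transcription, except that of *Hspb6*, which runs from 160 to 41 bases before it. The *Hspb6* stretch lies inside the gene span given above, which begins with a noncoding transcript at 30552178. In that annotation the coding transcript starts at 30553268, while the RefSeq window used for the distances ends at 30553300. Capitals mark matches to the heat shock element letters GAANNTTC or TTCNNGAA, to TATAAA, to the MEF2 site or to the CArG box, searched on both strands.
Hspb8, chr5:116422865-116423114, minus strand: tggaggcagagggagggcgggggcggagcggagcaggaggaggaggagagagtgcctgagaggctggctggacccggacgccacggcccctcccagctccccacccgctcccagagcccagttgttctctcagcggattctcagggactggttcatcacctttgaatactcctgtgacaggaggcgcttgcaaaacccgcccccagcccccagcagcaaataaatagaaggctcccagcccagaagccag
Hspb3, chr13:113663677-113663926, minus strand: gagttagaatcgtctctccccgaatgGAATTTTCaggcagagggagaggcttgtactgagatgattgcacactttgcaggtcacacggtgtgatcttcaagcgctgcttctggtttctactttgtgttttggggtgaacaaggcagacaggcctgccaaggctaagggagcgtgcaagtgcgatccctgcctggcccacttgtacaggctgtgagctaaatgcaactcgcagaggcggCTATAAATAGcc
Hspb1, chr5:135887669-135887918, plus strand: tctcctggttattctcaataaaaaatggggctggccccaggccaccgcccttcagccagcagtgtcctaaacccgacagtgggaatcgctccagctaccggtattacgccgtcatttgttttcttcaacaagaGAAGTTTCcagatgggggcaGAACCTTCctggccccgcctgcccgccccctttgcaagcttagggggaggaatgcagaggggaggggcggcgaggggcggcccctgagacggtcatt
Hspb6, chr7:30553141-30553260, plus strand: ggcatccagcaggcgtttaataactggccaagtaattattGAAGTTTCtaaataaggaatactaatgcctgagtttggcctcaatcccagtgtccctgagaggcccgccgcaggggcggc

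Of the 7 members 5 had a window of 250 bases before the start in the table, with 2 windows for *Hspb6*. The *Hspb1* window held 2 matches to GAANNTTC, at 117 and 97 bases before the start, the second *Hspb6* window held 1 and the *Hspb3* window held 1. Such a match stood in 3 of the 6 windows, against 6.69% of all 32851 windows of this length. TTCNNGAA stood in 0 of the 6 windows and in 7.17% of all. The *Hspb3* window ended in a match to the MEF2 site that overlaps its TATAAA. MEF2 sites were found in 1 of the 6 windows and in 2.92% of all, and TATAAA in 2 of the 6 and in 12.4% of all. E-boxes, CANNTG, the letters bound by MyoD and myogenin among other factors, stood in 4 of the 6 windows, including those of *Hspb8*, *Hspb3* and *Hspb1*, and in 66.2% of all. The CArG box stood in 0 of the 6 and in 1.47% of all. These are matches of letters only, and binding was not analysed here.

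The SCs made small heat shock protein transcripts at very unequal levels, and the order was the same in all 6 libraries. *Cryab*, which encodes αB-crystallin, a chaperone of desmin and titin, was the highest with a mean of 545.8 TPM, and 98.1% of the tested genes were lower. *Hspb1*, which encodes the chaperone of actin filaments that MAPKAPK2 phosphorylates, followed at 348.7 TPM. *Hspb8*, the partner of the co-chaperone BAG3 in the disposal of damaged filament proteins, was at 119.1 TPM and *Hspb2*, which binds the myotonic dystrophy kinase DMPK, at 51.1 TPM. *Hspb6*, a target of cyclic nucleotide-dependent kinases, was at 28.8 TPM, *Hspb3*, which forms a complex with HSPB2, at 16.8 TPM, and *Hspb7*, a member found chiefly in heart and skeletal muscle, at 5.33 TPM. Together *Cryab* and *Hspb1* made up 77.0% to 82.6% of the summed TPM of the 7 genes.

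Each gene was higher than the next in the order in 6 of 6 libraries. The mean difference between neighbours ran from 0.66 on the log2(TPM + 1) scale between *Cryab* and *Hspb1* to 1.54 between *Hspb1* and *Hspb8*. The order was taken from the mean TPM of these same libraries. An exact two-sided sign-flip permutation test over the libraries gave p = 0.03125 for each pair, the smallest that 6 libraries allow (adjusted p = 0.03125 over the 6 pairs). This p is fixed once a gene is higher in 6 of 6 libraries, so the test adds nothing to that count. *Cryab* stood at 1.22 times *Hspb1* in WT replicate 1 and at 1.98 times *Hspb1* in WT replicate 2. The ratio of *Cryab* to its chromosomal neighbour *Hspb2* ran from 9.54 to 11.9.

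**Figure D1:**
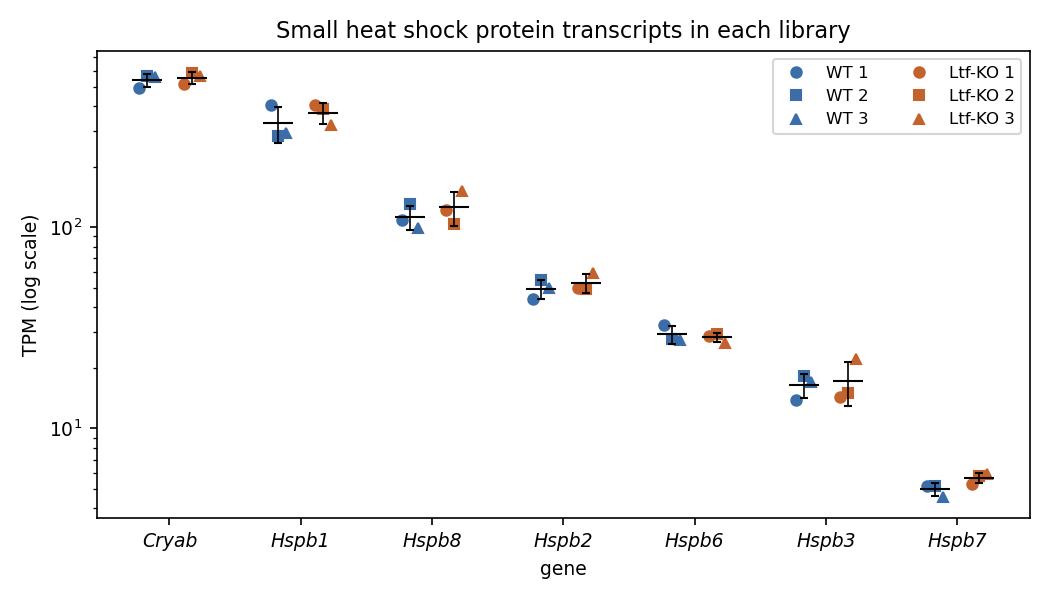
TPM of the 7 genes on a log axis, with 1 point for each library of SCs grown for 4 days and a black bar for the mean and SD of each genotype (n = 3). The order from *Cryab* (mean 545.8 TPM) down to *Hspb7* (mean 5.33 TPM) was the same in every library.

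The table assigned the HSP20 domain of Pfam, the alpha-crystallin domain, to 10 genes, the 7 members and 3 that were near 0. *Hspb9* was at 0.12 to 0.72 TPM, *Odf1* at 0 to 0.07 TPM and the lens gene *Cryaa* was listed at 0 in every library. *Hspb11*, which bears the family name but carries no HSP20 domain in that column and encodes a subunit of the transport machinery of cilia, was at 28.6 to 33.8 TPM in WT and 26.9 to 27.1 TPM in *Ltf*-KO.

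The comparison of *Ltf*-KO with WT asked whether loss of lactoferrin altered these transcripts in growing SCs, and no member passed the test. It was fitted with limma on log2(TPM + 1) over all 12956 genes. Of the 7 members 0 had an adjusted p under 0.05 (limma, Benjamini-Hochberg, smallest adjusted p = 0.999), where the share of all tested genes called was 0%. At an unadjusted p under 0.05 the members again numbered 0, where 3.78% of the tested genes passed, 2.01% higher and 1.78% lower in *Ltf*-KO. The log2 fold change was above 0 for 6 members and below 0 for 1, with a median of 0.092, against 55.7% of tested genes above 0 and a median of 0.011. Summed over the 7 genes, WT libraries held 1101, 1085 and 1049 TPM and *Ltf*-KO libraries 1135, 1173 and 1149.9 TPM. The sums did not overlap, and they are given as a description with no test. *Cryab* and *Hspb1*, which made up most of them, each overlapped between genotypes. Of the sums of the 13 other lists, those named next did not overlap either, and all the rest overlapped. Those of the kinases of small heat shock proteins were 428.6 to 440.7 TPM in WT and 444.6 to 452.5 TPM in *Ltf*-KO. Those of *Hspb9*, *Odf1*, *Cryaa* and *Hspb11* were 29.1 to 34.2 TPM in WT and 27.6 to 27.8 TPM in *Ltf*-KO. *Hspb11* alone made up most of these last sums. In these bulk samples a smaller share of cells with a transcript and less of it per cell cannot be told apart.

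*Cryab* was at 492.2, 564.7 and 557.0 TPM in WT and at 512.1, 584.3 and 564.5 TPM in *Ltf*-KO, each in the order of replicates 1 to 3. The 2 ranges overlapped over most of their length, and replicate 1 was the lowest of both genotypes. Its log2 fold change was 0.04 ± 0.071 (standard error), with a 95% confidence interval from -0.13 to 0.21, or 0.915-fold to 1.16-fold. The two-sided exact permutation p was 0.6, and with 3 libraries a genotype this test cannot go under 0.1.

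*Hspb1* was at 404.6, 284.9 and 294.0 TPM in WT and at 403.3, 384.9 and 320.6 TPM in *Ltf*-KO. WT replicate 1 lay with the upper *Ltf*-KO libraries, well above the other two, so the ranges overlapped. On the log2 scale the difference was 0.18 ± 0.15 (standard error), with an adjusted p of 0.999 (limma) and a 95% confidence interval from -0.18 to 0.55. Without WT replicate 1 it was 0.34 (limma unadjusted p = 0.0197, adjusted p = 1), and with any other library left out it was between 0.09 and 0.28.

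*Hspb8* was at 108.5, 129.7 and 99.4 TPM in WT and at 121.6, 104.2 and 151.1 TPM in *Ltf*-KO. Replicate 3 was thus the lowest WT library and the highest *Ltf*-KO library. The log2 fold change, 0.15 ± 0.15 by its standard error, had a 95% confidence interval from -0.22 to 0.52, and it was 0.01 without *Ltf*-KO replicate 3 and 0.28 without *Ltf*-KO replicate 2.

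*Hspb2* was at 44.1, 54.6 and 49.6 TPM in WT and 49.9, 49.1 and 59.2 TPM in *Ltf*-KO, a mean of 49.4 ± 5.25 against 52.7 ± 5.57 TPM (SD, n = 3). Its partner *Hspb3* was at 13.9, 18.3 and 16.9 TPM in WT and 14.4, 15.1 and 22.1 TPM in *Ltf*-KO. Both were lowest in WT replicate 1 and highest in *Ltf*-KO replicate 3, and the genotypes overlapped. The log2 fold change of *Hspb2* was 0.09 ± 0.10 (standard error), and it was 0.01 without *Ltf*-KO replicate 3 or without WT replicate 1 and 0.17 without WT replicate 2. That of *Hspb3*, 0.05 ± 0.18, had the widest confidence interval of the 7, from -0.37 to 0.47, and turned to -0.13 without *Ltf*-KO replicate 3 and to -0.06 without WT replicate 1.

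*Hspb6* was at 32.7, 27.9 and 27.4 TPM in WT and 28.8, 29.5 and 26.6 TPM in *Ltf*-KO, and it was the member with a negative log2 fold change, -0.05 ± 0.081 (standard error). WT replicate 1 stood above the other 5 libraries, and without it the log2 fold change was 0.03. That of *Cryab* was -0.02 without the same library.

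*Hspb7*, which binds filamin C in striated muscle, was the single member whose genotypes did not overlap. It was at 5.20, 5.19 and 4.58 TPM in WT and at 5.32, 5.81 and 5.90 TPM in *Ltf*-KO. The gap between the groups, from 5.20 to 5.32 TPM, was narrower than the range within either group. Its difference of 0.16 ± 0.086 on the log2 scale (standard error) did not pass the test (limma adjusted p = 0.999) and had a 95% confidence interval from -0.05 to 0.36. The two-sided exact permutation p was 0.1, the smallest possible. Groups did not overlap for 8.46% of all tested genes, and 4.73% did so with *Ltf*-KO higher.

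**Figure D2:**
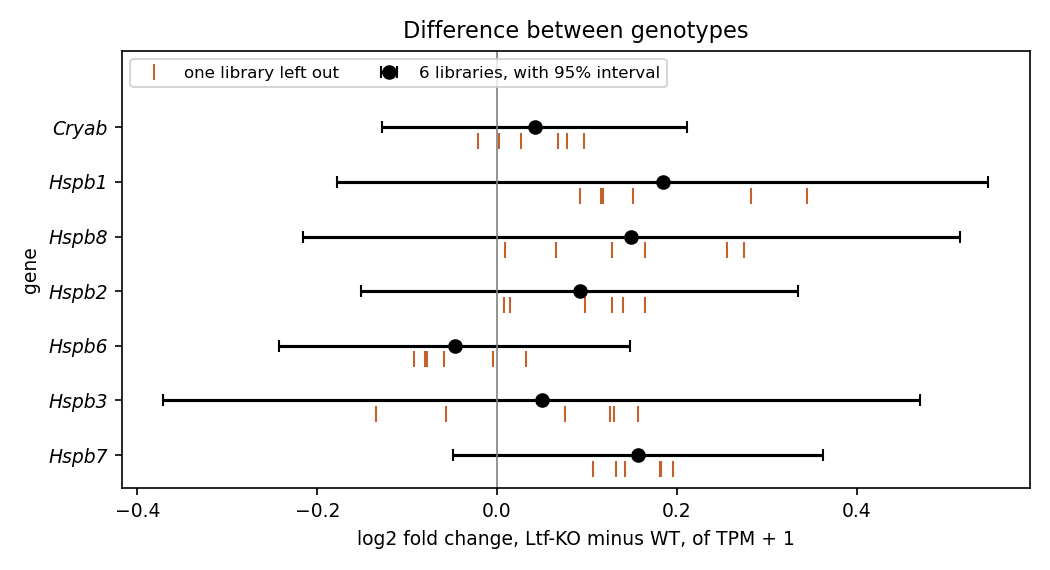
Log2 fold change of TPM + 1 in *Ltf*-KO against WT SCs for each gene (horizontal axis), with black points and bars for the limma estimate and its 95% confidence interval over 6 libraries and short marks for the fits with one library left out. Every interval spans 0, and the marks of *Cryab*, *Hspb6* and *Hspb3* fall on both sides of it.

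The spread between libraries was large for 3 members when set beside genes of similar level. The coefficient of variation over the 6 libraries was 15.8% for *Hspb1* and 16.2% for *Hspb8*, where the median of the 1391 genes at 100 TPM or more was 3.74%. It was higher than in 96.3% and 96.5% of those genes. For *Hspb3* it was 18.3%, where the median of the 6681 genes from 10 to 100 TPM was 6.29%, and 94.8% of them varied less. *Hspb3* is near the low end of that range, where spread is larger. Among the 1941 genes from 9.88 to 17.5 TPM the median was 8.19% and the 90th percentile 18.0%, just under *Hspb3*. *Cryab* (6.52%), *Hspb2* (10.1%) and *Hspb6* (7.56%) were also above the median of their range. *Hspb7*, at 9.01%, was below the median of 16.1% of the genes from 1 to 10 TPM. Among the WT libraries alone the coefficient of variation of *Hspb1* was 20.3%, and among the *Ltf*-KO libraries alone it was 24.8% for *Hspb3*.

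**Figure D3:**
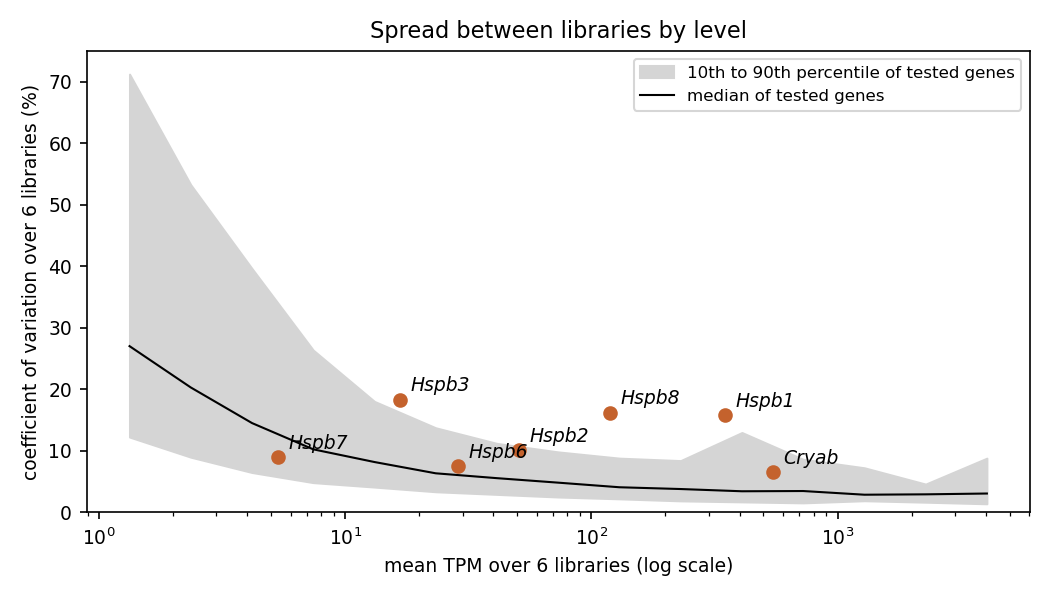
Coefficient of variation over the 6 libraries (vertical axis, percent) against mean TPM (log axis) for the 7 genes as points, with the median of the tested genes as a line and their 10th to 90th percentiles in grey. *Hspb3*, *Hspb8* and *Hspb1* lie above the grey band, at 18.3%, 16.2% and 15.8%.

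The members did not vary together. Across the 6 libraries *Hspb2* and *Hspb3*, whose proteins form a complex, had the highest correlation of the 21 pairs (Pearson r = 0.92 of log2(TPM + 1)), followed by *Hspb8* with *Hspb2* (r = 0.81), *Hspb1* with *Hspb6* (r = 0.73) and *Hspb8* with *Hspb3* (r = 0.73). The lowest were *Hspb2* with *Hspb6* (r = -0.87), *Hspb6* with *Hspb3* (r = -0.81) and *Hspb1* with *Hspb3* (r = -0.74). *Cryab* and *Hspb2*, which share the interval between their starts, had an r of 0.62. The 6 points of each pair share their libraries and the scaling of each library to one total, so these values are descriptions.

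*Hspb1* was high in WT replicate 1 and in *Ltf*-KO replicates 1 and 2, by 0.16 to 0.23 above its mean on the log2 scale, and lower in the other 3 libraries. *Hspb2* and *Hspb3* had their highest values in *Ltf*-KO replicate 3, followed by WT replicate 2, which were also the top libraries of *Hspb8*. *Hspb1* has a GC content of 61.7%, higher than that of 98.7% of 8032 genes. That of *Hspb2*, whose r with *Hspb1* was -0.62, is 59.6%, higher than in 95.5% of these genes. The median deviation of the tenth of genes with most GC minus that with least was 0.043 in WT replicate 1, -0.047 in *Ltf*-KO replicate 1 and 0.072 in *Ltf*-KO replicate 2 on the log2 scale. The same measure was -0.047 in WT replicate 2, -0.018 in WT replicate 3 and 0.0035 in *Ltf*-KO replicate 3. The part of GC content in the spread of *Hspb1* was not tested.

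**Figure D4:**
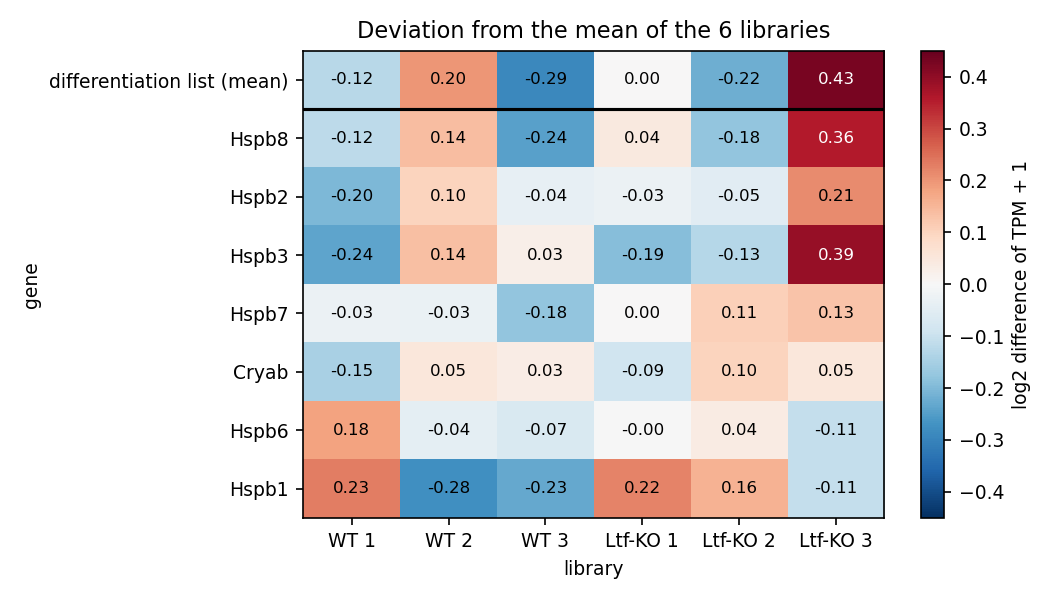
Deviation of each gene from its mean over the 6 libraries in log2(TPM + 1), with libraries in columns and, above the line, the mean deviation of 23 muscle differentiation genes. *Hspb8* takes nearly the values of the differentiation row, from -0.24 in WT replicate 3 to 0.36 in *Ltf*-KO replicate 3, while *Hspb1* is highest in WT replicate 1 at 0.23.

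The libraries differed in the transcripts of muscle differentiation, and *Hspb8* followed these most closely. The list held 23 genes, among them *Myog*, which encodes the differentiation factor myogenin, and the contractile genes *Mylpf*, *Acta1* and *Tnnc1*. Their summed level was 4756, 6029 and 4448 TPM in WT and 5163, 4564 and 7030.3 TPM in *Ltf*-KO, with *Ltf*-KO replicate 3 and WT replicate 2 highest. All 23 had a log2 fold change above 0 (median 0.15), as did 55.7% of all tested genes. The mean log2 deviation of the list was -0.12, 0.20 and -0.29 in WT and 0.002, -0.22 and 0.43 in *Ltf*-KO. The genotypes thus overlapped, with *Ltf*-KO replicate 3 highest. The 23 genes share these libraries, so their directions are not independent. Between genotypes 0 of the 23 passed the limma test, with or without adjustment. The correlation of *Hspb8* with the mean of the list was r = 0.99 over the 6 libraries, and 0.985 to 0.999 with any one library left out. *Hspb8* had place 3 among the 12933 tested genes outside the list when ordered by this r. For *Hspb2* r was 0.82 and for *Hspb3* 0.76, and without *Ltf*-KO replicate 3 these were 0.57 and 0.35. *Hspb7* was at 0.53, *Cryab* at 0.15, *Hspb1* at -0.31 and *Hspb6* at -0.47. The part of differentiation in the spread of these genes was not tested.

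**Figure D5:**
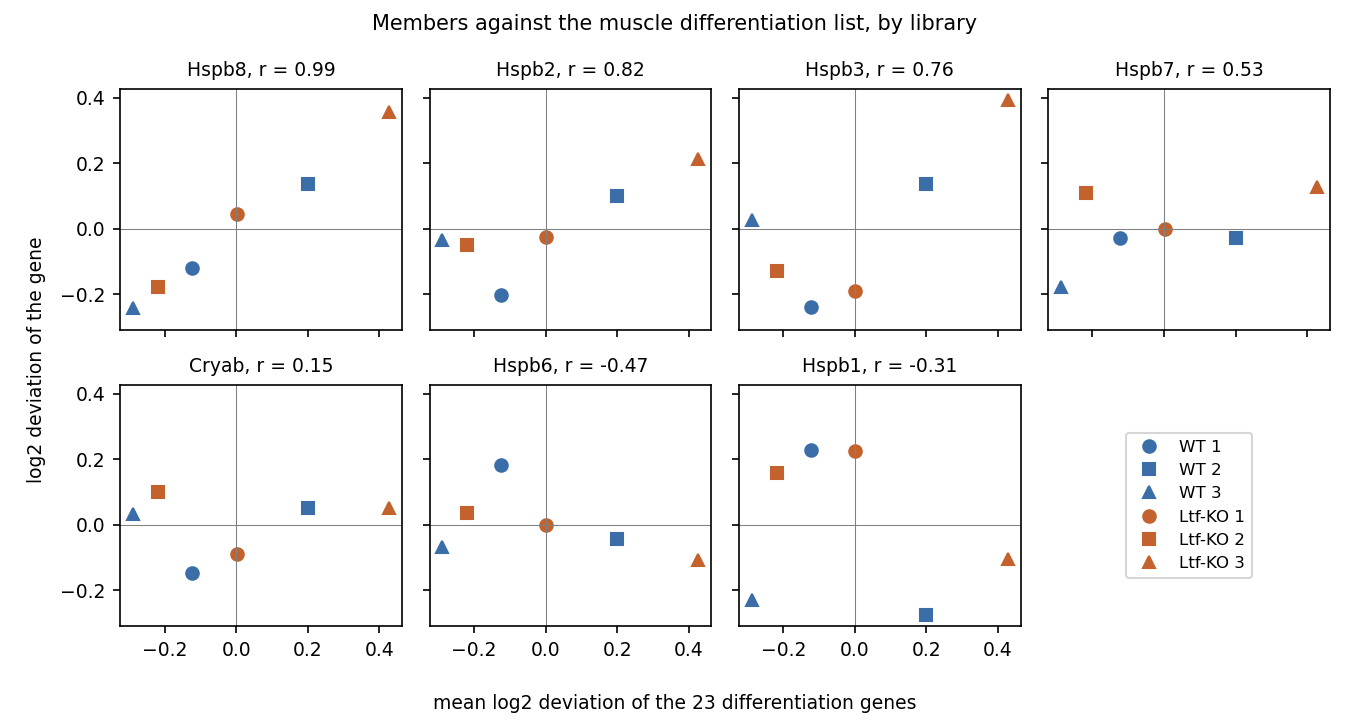
Log2 deviation of each gene (vertical axis) against the mean log2 deviation of the 23 muscle differentiation genes (horizontal axis), with 1 point for each of the 6 libraries. The points of *Hspb8* lie near a line (r = 0.99), and those of *Cryab* (r = 0.15) and *Hspb1* (r = -0.31) do not.

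For each member the 3 genes with the most similar course over the 6 libraries were sought among up to 8072 genes that averaged 10 TPM or more. These r are over 6 libraries that each gene shares, and they are given as descriptions. An r takes no account of the size of the changes. The genes are named from the highest r down. For *Hspb8* these genes were *Rpl21* (r = 0.999), *Acat1* (r = 0.998) and *Tpm2*, a muscle tropomyosin (r = 0.996, 405.0 to 537.5 TPM). *Rpl21* moved little, from 651.8 to 684.9 TPM. For *Cryab* they were *Prex1* (r = 0.991), *Map1lc3a*, which encodes a protein of the autophagosome membrane (r = 0.984, 24.3 to 30.7 TPM), and *Psmd2*, a subunit of the proteasome (r = 0.977). *Psmd2* also moved little, from 256 to 264 TPM. For *Hspb7* they were *Rhoa* (r = 0.969), *Vcp*, which encodes an ATPase that extracts proteins for degradation (r = 0.968), and *Slc11a2* (r = 0.960). *Hspb1* was most similar to *Prps1*, *Tsen34* and *Chpf*, *Hspb2* to *Cipc* and *Gadd45a* among the genes given, *Hspb3* to *Zkscan3*, *Hmbox1* and *Dlgap5*, and *Hspb6* to *Znrf1*, *Foxp4* and *Rnf166*, with r of 0.982 to 0.999.

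The transcripts of the pathway around the small heat shock proteins showed no called difference between genotypes. Heat shock factor 1, the transcription factor that induces *Hspb1* and *Cryab* under stress, is encoded by *Hsf1*, which was at 55.9 to 58.9 TPM in WT and 56.7 to 58.0 TPM in *Ltf*-KO. *Hsf2* was tested too, and *Hsf4*, with a mean of 0.77 TPM, was under the filter. All 18 stress-inducible chaperones and co-chaperones were tested, 0 passed with or without adjustment (limma), and their median log2 fold change was 0.0036. The 3 highest were *Hsp90ab1* at 2275 TPM, *Hspa8* at 2026 TPM and *Hspe1* at 624.6 TPM on average. The genes that heat shock raises most were low, with *Hspa1a* at 4.86 and *Hspa1b* at 15.5 TPM, and these near-identical copies share reads, so their split is uncertain.

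*Hspb8* works with BAG3, HSPA8 and the ubiquitin ligase STUB1 in chaperone-assisted selective autophagy, which clears damaged filamin at the Z disc. *Bag3* was at 51.7, 52.9 and 47.6 TPM in WT and 53.2, 51.4 and 54.2 TPM in *Ltf*-KO, with overlapping ranges and a log2 fold change of 0.06 ± 0.05 (standard error). Of the 12 genes of this list 0 had an unadjusted p under 0.05, and the median log2 fold change was 0.024. Its 3 highest genes were *Hspa8*, *Sqstm1* at 490.0 TPM and *Stub1* at 133.2 TPM. The 8 filament and client genes also gave 0 at an unadjusted p under 0.05, with a median of 0.017. *Vim* was at 6101 TPM, *Actb* at 3642 TPM and *Tuba1a* at 753.0 TPM, and the muscle intermediate filament gene *Des* at 446.5 to 502.8 TPM in WT and 455.6 to 510.6 TPM in *Ltf*-KO.

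Of the 8 kinase genes that act on small heat shock proteins or upstream of them 7 had a log2 fold change above 0, with a median of 0.076, and 0 had an unadjusted p under 0.05. *Mapkapk2*, whose kinase phosphorylates HSPB1 below p38, was at 47.5 to 50.4 TPM in WT and 48.0 to 52.8 TPM in *Ltf*-KO. The highest of this list were *Akt1* at 200.51 TPM, *Prkaca* at 87.9 TPM and *Mapkapk2* at 49.6 TPM. These are transcript levels, and phosphorylation was not analysed here.

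Among the marker lists of other cells, 2 of the 5 tested smooth muscle and pericyte genes had an unadjusted p under 0.05 and were higher in *Ltf*-KO. They were *Tagln* (59.5 to 60.8 against 66.0 to 83.8 TPM) and *Pdgfrb* (means of 4.11 against 6.42 TPM), and neither passed the adjusted threshold (limma adjusted p = 0.999). Of all tested genes 3.78% had an unadjusted p under 0.05, 2.01% with *Ltf*-KO higher, and no other list held such a gene. The summed level of this list of 9 genes was 482.4 to 568.1 TPM in WT and 552.2 to 676.1 TPM in *Ltf*-KO. Most of it was *Acta2*, at 408.8 to 493.1 TPM in WT and 450.1 to 593.0 TPM in *Ltf*-KO. *Acta2* was highest in *Ltf*-KO replicate 3 and lowest in WT replicate 3, as was the summed differentiation list. Several others of the list were near 0, with means of 0.42 TPM for *Myh11*, 0.25 for *Rgs5*, 0.067 for *Kcnj8* and 0.96 for *Cnn1*. The fibroblast list of 10 genes summed to 131.6 to 136.8 TPM and 134.2 to 171.2 TPM. *Hspb6* and *Hspb7*, which smooth or cardiac muscle also express, stood at 28.8 and 5.33 TPM beside these, and the part of other cells in their levels was not tested.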

How the data were processed

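RNA sequencing of SCs grown for 4 days gave 6 libraries, 3 WT and 3 *Ltf*-KO, grouped by their sample titles. The authors deposited TPM values for 55416 genes, after extraction and normalization by the sequencing company's protocol. The submitters' processing notes name GRCm39, and the aligner, counter and annotation are not given in the sources used here. The unit was taken from the values. TPM keeps no depth, so precision was judged from the spread between libraries. Positions on GRCm38 were taken from GENCODE M21 by gene identifier.

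*Ltf*-KO was compared with WT by limma 3.58.1 (lmFit, eBayes with a trend) in R 4.3.3 on log2(TPM + 1), which understates the change of low genes, for genes averaging 1 TPM or more, with two-sided tests and Benjamini-Hochberg adjustment over 12956 genes. The threshold was 0.05. The fit was tested on simulated data. An exact permutation test (20 splits) was added for each member. Neighbouring levels, in an order taken from the same values, were compared by an exact sign-flip test. The members and lists were chosen with earlier results of these data known. Genes named outside the family were *Hsf1*, *Bag3*, *Mapkapk2*, *Des*, *Ltf*, those of each list at an unadjusted p under 0.05 or otherwise its 3 highest, and the 3 genes most like each member, of which 1 is not reported here. *Pax7*, *Myod1*, *Myog*, *Acta1*, *Tnnc1*, *Hspb9*, *Odf1*, *Cryaa*, *Hsf2*, *Hsf4*, *Hspa1a*, *Hspa1b*, *Acta2*, *Myh11*, *Rgs5*, *Kcnj8*, *Cnn1*, *Cd14*, *Cd68* and *Lyz2* were named after their values were seen.

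The labels give both genotypes replicate numbers 1 to 3, and libraries of one number did not deviate together (r of -0.041, -0.058 and -0.088 across genes), which leaves them unpaired.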

Additional observations from a re-analysis of the deposited data

How the results depend on the processing

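Over 12 alternatives to the limma fit, 0 of the 7 members had an adjusted p under 0.05. Of 83 refitted log2 fold changes 79 kept their direction, and 1 had an unadjusted p under 0.05 (*Hspb1* without WT replicate 1). A changed filter, or the replicate number held as a block, cannot alter a log2 fold change. Those refits kept their direction by construction. The 4 that reversed were *Hspb3* (-0.06), *Hspb6* (0.03) and *Cryab* (-0.02) without WT replicate 1, and *Hspb3* (-0.13) without *Ltf*-KO replicate 3, and the cause was not tested. With one library left out the log2 fold change ran from -0.135 to 0.157 for *Hspb3*, from -0.0926 to 0.0320 for *Hspb6* and from -0.0209 to 0.0968 for *Cryab*. *Hspb7* was under the filter of a mean of at least 10 TPM and had no value there. The count of all genes called was 0 in the 6-library fits and 0 to 6 with one library left out (6 without WT replicate 2). Median-of-ratios scaling and quantile normalization moved the median log2 fold change of all genes from 0.011 to -0.00038 and -0.0020, and no member changed direction under either. A fit that held the replicate number as a block called 0 genes and 380 had an unadjusted p under 0.05, against 490 without it, and the libraries share only a number. Without a filter 890 of 26553 genes had an unadjusted p under 0.05, and among genes averaging 10 TPM or more 281 of 8072, since other numbers of genes were tested. All 6 neighbouring pairs of levels were called with a pseudocount of 0.1 and with quantile normalization. Neither alters the order of genes within a library, so that outcome was fixed in advance. With one library left out 0 pairs could be called, since 5 libraries allow no p under 0.0625, and each gene stayed above the next in every library. TPM gives no read depth, and 3 libraries a genotype leave intervals as wide as those above. These intervals are not adjusted for the number of genes tested, while the calls are. Changes of the size of these intervals were therefore not detectable, and larger ones may also have been missed.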
